A study of Mus musculus with 11 samples.

Results

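The interleukin-33 (IL-33) axis was followed through the ageing mouse ovary by 3 genes, 3 of the 54232 in the count table. They are Il33, which encodes the ligand, Il1rl1, which encodes its receptor ST2, and Il1rap, which encodes the shared co-receptor. They were picked by gene symbol, Il33 because it was among the genes with a strong rise after 2 months of age, and the receptor genes because they complete the axis. The values that chose Il33 are those of 18 and 24 months against 2 months, which are therefore given for it as a description with no test. All 3 genes passed the filter on low counts.

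Whole ovaries of mice with the genotype label WT were sequenced in bulk at 2, 18 and 24 months of age, with no treatment or transgene named in the labels. The series calls these ages young, old and post-reproductive. The 2 month and 18 month groups had 4 libraries each and the 24 month group 3, and the library names carry 8 weeks for the 2 month group and 22 months for the 24 month group. The labels do not say whether the libraries came from separate animals or from pools, so p-values measure the spread between these samples.

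Total counts lay between 26061630 and 33407509 per library, except for 5231724 in 18 month replicate 3 and 8892915 in 18 month replicate 4. The last 2 differed by about counting noise (chi-square per gene 1.10, against 35.04 for the next closest pair of an age) and were summed to 1 sample, which leaves 4, 3 and 3 samples. Defining genes of the ovary were present at every age, with a summed level of the granulosa cell list between 1482 and 4598 CPM (counts scaled to the size of the library). The oocyte list summed to between 242 and 569 CPM at 2 months and to between 5.89 and 43.2 CPM at 24 months.

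IL-33 is a cytokine of the IL-1 family that is stored in the nucleus of endothelial, epithelial and stromal cells and is set free when such cells are damaged, which is why it is called an alarmin. Outside the cell it binds ST2 on mast cells, group 2 innate lymphoid cells, regulatory T cells and other cells. ST2 pairs with the IL-1 receptor accessory protein and recruits MyD88, IRAK kinases and TRAF6, which leads to NF-kappaB and MAP kinase activity. A second, soluble form of ST2 made from the same gene binds IL-33 without signalling, and proteases of mast cells and neutrophils trim IL-33 to more active forms.

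Il33 (ENSMUSG00000024810) lies on chromosome 19 at 29925114 to 29960718 on the plus strand of mm10, and its annotated exons cover 2886 bases. Il1rl1 (ENSMUSG00000026069) lies on chromosome 1 at 40429570 to 40465415 on the plus strand, with 6894 exonic bases. Its neighbour on the same strand is Il18r1, the gene of the IL-18 receptor, which begins 136 bases after the end of Il1rl1. Il1rap (ENSMUSG00000022514) lies on chromosome 16 at 26581704 to 26730117 on the plus strand, with 11360 exonic bases. An annotated antisense gene, Gm20319, overlaps exons of Il1rap and had 10 counts over all libraries.

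Il1rl1 has more than 1 annotated start. As background, the upstream promoter is known from mast cells and other blood cells, where GATA factors act on it, and the downstream one from fibroblasts. The counts are per gene and do not separate these starts, nor the membrane and soluble forms of ST2. The 250 bases before 4 of the annotated starts are shown as a description. Which start was in use, and any part of GATA factors in these samples, was not tested. They come from RefSeq, build GRCm38.p6, plus strand, 5′ to 3′, with GATAA or its reverse complement TTATC in capitals. The windows are chr19:29924863-29925112 for the first start of Il33, chr1:40429320-40429569 for the upstream start of Il1rl1, chr1:40439379-40439628 for its downstream start and chr16:26581455-26581704 for Il1rap.
Il33 first start: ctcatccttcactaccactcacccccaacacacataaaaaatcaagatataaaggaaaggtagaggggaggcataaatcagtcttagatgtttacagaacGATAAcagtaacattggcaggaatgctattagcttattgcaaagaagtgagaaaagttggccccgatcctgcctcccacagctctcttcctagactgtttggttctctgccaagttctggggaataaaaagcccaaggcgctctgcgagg
Il1rl1 upstream start: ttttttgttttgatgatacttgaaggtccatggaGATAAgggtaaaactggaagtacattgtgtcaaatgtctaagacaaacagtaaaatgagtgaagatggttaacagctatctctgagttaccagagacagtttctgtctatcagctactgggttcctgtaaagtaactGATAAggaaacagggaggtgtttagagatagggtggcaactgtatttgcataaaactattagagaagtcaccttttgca
Il1rl1 downstream start: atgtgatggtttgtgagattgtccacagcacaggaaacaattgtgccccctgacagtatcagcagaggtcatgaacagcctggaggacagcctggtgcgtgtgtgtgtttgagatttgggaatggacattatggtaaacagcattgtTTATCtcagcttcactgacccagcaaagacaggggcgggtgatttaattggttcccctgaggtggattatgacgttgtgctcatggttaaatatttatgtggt
Il1rap: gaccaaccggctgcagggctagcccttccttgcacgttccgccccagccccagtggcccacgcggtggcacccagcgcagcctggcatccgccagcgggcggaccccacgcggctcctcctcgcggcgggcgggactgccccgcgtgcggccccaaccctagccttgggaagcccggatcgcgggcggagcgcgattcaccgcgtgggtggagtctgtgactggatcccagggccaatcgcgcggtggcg

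The upstream window of Il1rl1 held 2 copies of GATAA, the downstream window 1, the first window of Il33 1 and that of Il1rap 0. A second annotated start of Il33, at chr19:29945540-29945789 and not printed, held 0 and had a GC content of 39.6%. Of 32851 windows of the same length, 22.6% held GATAA on either strand at least once and 4.28% at least 2 times. The GC content was 37.6% and 46.4% before the starts of Il1rl1, 45.2% for the first start of Il33 and 74.4% for Il1rap, against a median of 52.4% over all windows. Of the members only Il1rap thus has a GC-rich promoter window, with 30 CG dinucleotides against a median of 6. A match of letters is a description of the window and not a binding site.

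The ligand gene was low in young ovaries and higher in every older sample. Il33 stood at 2.62, 3.33, 2.72 and 2.80 CPM in 2 month replicates 1 to 4. At 18 months it was 9.07 CPM in replicate 1, 15.3 CPM in replicate 2 and 27.6 CPM in the summed sample of replicates 3 and 4. At 24 months it was 17.8, 24.6 and 23.8 CPM in replicates 1 to 3. The young samples lay close together, the 18 month samples were spread over a wide range, and the older groups overlapped each other but not the young group.

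The mean of Il33 was 2.87 ± 0.314 CPM (SD, n = 4) at 2 months, 17.3 ± 9.45 CPM (n = 3) at 18 months and 22.1 ± 3.69 CPM (n = 3) at 24 months. The coefficient of variation was 54.6% at 18 months, against 10.97% at 2 months and 16.7% at 24 months. The log2 fold change from 2 months was 2.59 (SE 0.325) at 18 months and 2.94 (SE 0.327) at 24 months. By size of fold change Il33 ranked 447 at 18 months and 711 at 24 months among 20331 tested genes. Without the summed 18 month sample, the one with the highest level, the 18 month value was 2.08. From 18 to 24 months the difference was 0.36 (SE 0.335, edgeR adjusted p = 0.708), which did not pass the test and is smaller than the spread at 18 months. In bulk tissue, more cells that express a gene and more RNA per cell cannot be told apart.

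**Figure D1:**
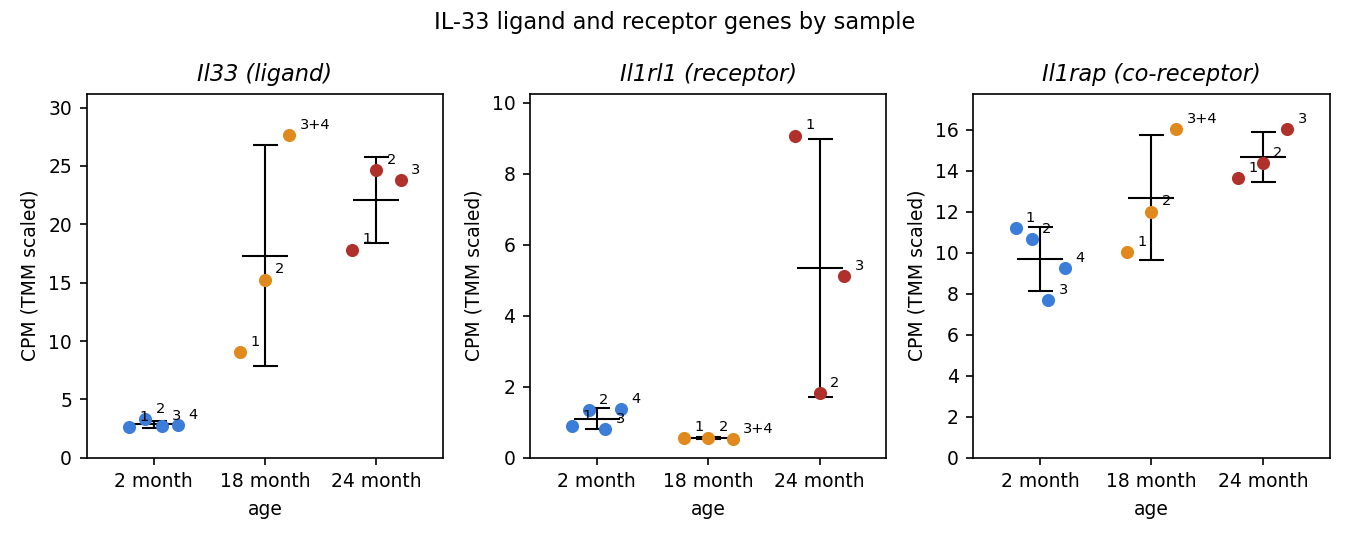
TMM-scaled CPM (y axes, each from 0) of Il33, Il1rl1 and Il1rap in each sample at 3 ages, with replicate numbers beside the points, a horizontal line at the mean and bars of 1 SD. Il33 is between 2.62 and 3.33 CPM in young samples and at 9.07 CPM or above in older ones, Il1rl1 is lowest at 18 months and spread between 1.82 and 9.07 CPM at 24 months, and the ranges of Il1rap lie close together.

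The receptor gene followed another course. Il1rl1 stood at 0.896, 1.34, 0.812 and 1.37 CPM in 2 month replicates 1 to 4, from 26, 43, 20 and 45 counts. At 18 months it was 0.567, 0.568 and 0.530 CPM, from 16, 18 and 8 counts. At 24 months it was 9.07, 1.82 and 5.12 CPM in replicates 1 to 3, from 243, 64 and 176 counts. The groups did not overlap, with every 18 month sample below every young one and every 24 month sample above it, and the 24 month samples were spread widely.

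Il1rl1 averaged 1.10 ± 0.290 CPM (SD, n = 4) at 2 months, 0.555 ± 0.0214 CPM (n = 3) at 18 months and 5.34 ± 3.63 CPM (n = 3) at 24 months. From 2 to 18 months the log2 fold change was -0.99 (SE 0.499), which did not pass the test (edgeR adjusted p = 0.216). With 8 to 18 counts per sample at 18 months, a lower level is poorly resolved at this depth. Of all tested genes, 27.3% had groups that did not overlap between these ages, 13.7% with the 18 month samples lower, so this separation is common in the data.

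From 2 to 24 months Il1rl1 rose by 2.26 on the log2 scale (SE 0.460), with an edgeR adjusted p of 0.00704, and was higher in 3 of 3 samples than in any young one. Both receptor genes passed in this comparison, in which 35% of all tested genes were called, 19.2% as higher and 15.8% as lower. The groups of 42.1% of tested genes did not overlap between these ages, 21.7% with the older samples higher and 20.4% with them lower. Without 24 month replicate 1, which had the highest level, the change was 1.65 (edgeR adjusted p = 0.0142). With limma-voom and sample quality weights it was 1.15 and missed the threshold (adjusted p = 0.0519).

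Between 18 and 24 months the log2 fold change of Il1rl1 was 3.25 (SE 0.542), and all 24 month samples were higher. Groups that did not overlap were found for 12.1% of tested genes here, 6.73% with 24 months higher and 5.36% with it lower. Il1rl1 ranked 4 by edgeR p among all genes but did not pass after adjustment (edgeR adjusted p = 0.387). In this comparison edgeR called 1 gene, Ptpn5, a tyrosine phosphatase gene named here because it was the only call, which is 0.00492% of tested genes, and none lower (0%). With the replicate block, fitted over all 3 ages although the numbers were treated as pairing these 2 only, no gene was called. None was called either without 2 month replicate 1, 2 or 4, 18 month replicate 1 or 2, or 24 month replicate 2 or 3. At an unadjusted p under 0.05 there were 2108 genes, and DESeq2 called 187, among them Il1rl1 (adjusted p = 3.848e-05). Over the alternatives other than leaving out a sample, the adjusted p of Il1rl1 ranged from 3.848e-05 to 0.686.

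The co-receptor gene had the smallest fold changes of the 3. Il1rap stood at 11.2, 10.7, 7.68 and 9.25 CPM in 2 month replicates 1 to 4. At 18 months it was 10.03, 12.01 and 16.04 CPM, and at 24 months 13.7, 14.4 and 16.02 CPM. The 18 month samples overlapped both other ages, and only the young and the 24 month samples were fully apart. The means were 9.70 ± 1.58 CPM (SD, n = 4), 12.7 ± 3.06 CPM (n = 3) and 14.7 ± 1.21 CPM (n = 3).

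The log2 fold change of Il1rap was 0.38 (SE 0.193, edgeR adjusted p = 0.214) at 18 months, where 11.6% of all tested genes were called, 6.04% as higher and 5.51% as lower, and neither receptor gene was. At 24 months it rose by 0.60 (SE 0.192, edgeR adjusted p = 0.0370), a call near the threshold. It was lost when any 1 of the 2 month or 24 month samples was left out, in 7 of 10 such fits, with values between 0.48 and 0.66. It was also lost with no count filter (0.57, edgeR adjusted p = 0.0700). From 18 to 24 months the difference was 0.21 (SE 0.207, edgeR adjusted p = 0.716).

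Levels of different genes were compared per kilobase of annotated exon, the union over all transcripts. This union is 11360 bases for Il1rap, whose longest annotated transcript has 4520 bases. For Il1rl1 the values are 6894 and 5302 bases, and for Il33 2886 and 2544 bases. The order of genes with close levels, above all for Il1rap, therefore depends on the length used. At 2 months Il33 had 0.993 ± 0.109 CPM per kb and Il1rap 0.854 ± 0.139 CPM per kb, with overlapping samples, while Il1rl1 had 0.160 ± 0.0421 CPM per kb. At 18 months the levels were 6.002 ± 3.28 for Il33, 1.12 ± 0.270 for Il1rap and 0.0805 ± 0.00311 CPM per kb for Il1rl1. At 24 months they were 7.65 ± 1.28, 1.29 ± 0.107 and 0.774 ± 0.526 CPM per kb. In all 10 samples the ligand gene was above the receptor gene on this scale.

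The ratio of Il33 to Il1rl1 per kilobase therefore depended on the sample. It was between 4.88 and 8.002 in young ovaries and 38.2, 64.2 and 125 in the 18 month samples. At 24 months it was 4.70 in replicate 1, 32.3 in replicate 2 and 11.1 in replicate 3. At 18 months every ratio lay above every ratio of the other ages, and 24 month replicate 1, at 4.70, was close to the lowest young ratio of 4.88. This is a description, since the values that chose Il33 enter the ratio. The 18 month ratios also rest on only 16, 18 and 8 counts of Il1rl1. The ratio of Il1rap to Il1rl1 was likewise highest at 18 months, from 10.7 to 18.4, against 4.10 to 7.59 at 2 months and 0.914, 4.79 and 1.90 at 24 months. On this scale, replicate 1 of the 24 month group was the only sample in which the receptor gene exceeded its co-receptor gene. In CPM Il1rl1 was below Il1rap there (9.07 against 13.7), so this order depends on the length used.

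**Figure D2:**
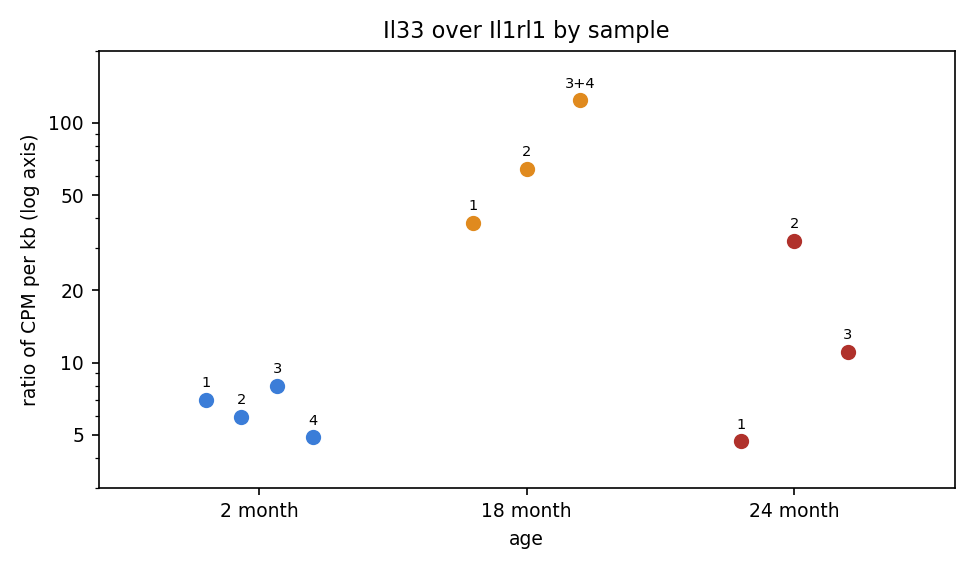
Ratio of Il33 to Il1rl1 in CPM per kb of exon (log y axis) in each sample at 3 ages, with replicate numbers above the points. The ratio is between 4.88 and 8.002 at 2 months, between 38.2 and 125 at 18 months and 4.70, 32.3 and 11.1 in 24 month replicates 1, 2 and 3. The 18 month ratios rest on 8 to 18 counts of Il1rl1 per sample.

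Across the 10 samples, which share age groups and library depth between genes, log2 CPM of Il33 and Il1rap had a Pearson r of 0.86, and 0.76 for deviations from the age means. For Il33 and Il1rl1 the values were 0.29 and -0.21, and for Il1rl1 and Il1rap 0.39 and 0.02. These are descriptions over 10 samples. The values that chose Il33 enter its r over samples. The summed 18 month sample had the highest level of both Il33 and Il1rap, so their r of deviations leans on it. The ligand and co-receptor genes were the closest pair, and the receptor gene stood apart from both.

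Mast cells, which carry ST2, store granule proteases whose genes are hardly made elsewhere. In the 24 month group these genes were high in replicates 1 and 3 and low in replicate 2, the order of Il1rl1. Cpa3, a mast cell carboxypeptidase, stood at 38.6, 0.569 and 19.8 CPM in 24 month replicates 1 to 3, against 0.0812 to 1.03 CPM in young and 0.0663 to 0.602 CPM in 18 month samples. Cma1, a chymase, was 40.3, 0.512 and 16.7 CPM, and Mcpt4, another chymase, was 32.2, 0.427 and 14.5 CPM. Tpsb2, a tryptase, was 46.5, 0.654 and 18.2 CPM. In 24 month replicate 2 each of these 4 genes lay within its young range, which did not exceed 1.65 CPM, whereas Il1rl1 at 1.82 CPM was still above all young and 18 month samples.

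The receptor of mast cells for secretagogues, Mrgprb2, was at 0 in all 2 and 18 month samples and at 1.64, 0.0569 and 1.19 CPM at 24 months. The subunits of the high-affinity IgE receptor were at 4.63, 0.0854 and 2.06 CPM for Fcer1a and 2.87, 0.114 and 2.15 CPM for Ms4a2, which basophils share. Of the 12 genes of the mast cell list 8 could be tested. From 2 to 24 months 5 rose and 1 fell, where 19.2% of all tested genes were called higher and 15.8% lower. The median log2 fold change was 4.83, against 0.03 over all tested genes. Those that rose were Cpa3 (5.08, SE 1.22, edgeR adjusted p = 0.0132), Cma1 (5.05, SE 1.29), Mcpt4 (5.58, SE 1.44), Tpsb2 (4.93, SE 1.42) and Tpsab1 (4.73, SE 1.46), although none was apart from the young group in every sample. The calls of Tpsb2 and Tpsab1 were lost without 24 month replicate 1 and without some young samples, namely replicates 2 to 4 for Tpsb2 and each of the 4 for Tpsab1.

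The gene that fell was Slc18a2, a transporter of histamine and other amines into vesicles, at -2.59 (SE 0.539, edgeR adjusted p = 0.00783). Slc18a2, Kit, the receptor for stem cell factor that oocytes also carry, and Hdc, the enzyme of histamine synthesis, were the bulk of the list's summed level at 2 months. Kit and Hdc did not pass, at 0.17 (SE 0.299) and 0.51 (SE 0.298). The whole list summed to between 173 and 350 CPM at 2 months, 107 and 162 CPM at 18 months and 111 and 329 CPM at 24 months. At 18 months none of its genes rose and 1 fell, where 6.04% of all tested genes were called higher and 5.51% lower. Slc18a2 fell by 1.90 (SE 0.522, edgeR adjusted p = 0.0456). This call was lost in 6 of 10 fits, without 2 month replicates 1, 2 or 4 or any 18 month sample. The part of mast cell number in the level of Il1rl1 was not tested.

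**Figure D3:**
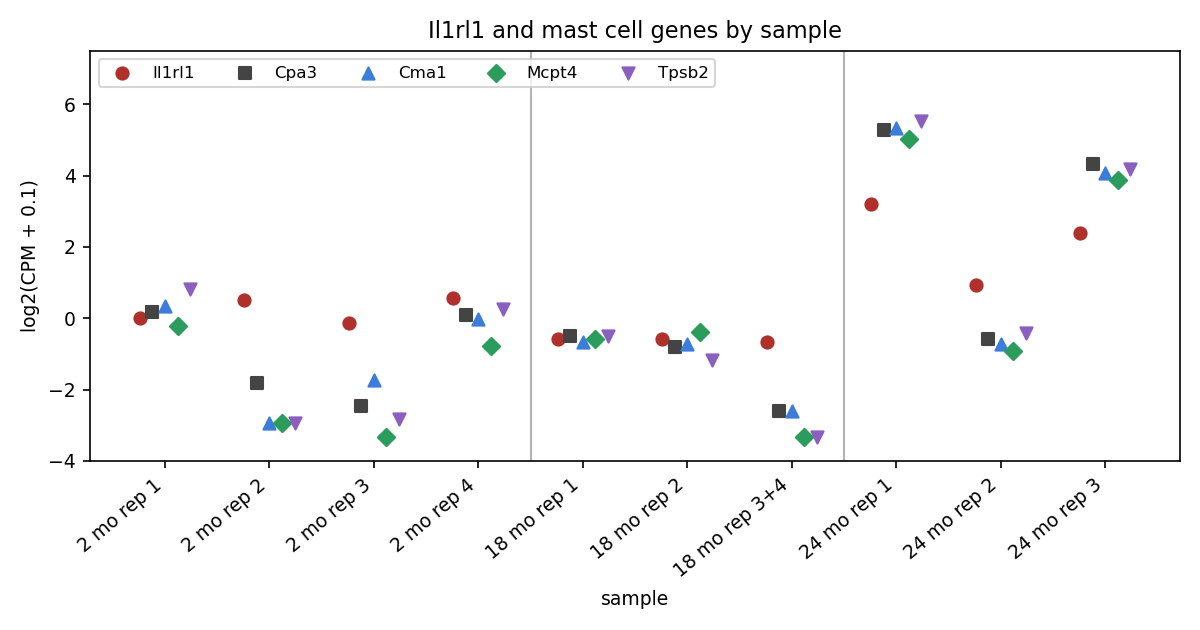
Level of Il1rl1 and 4 mast cell protease genes in each of the 10 samples, as log2 of CPM with a small constant added so that zeros can be drawn (y axis, scale given on the axis). The protease genes are far above all other samples in 24 month replicates 1 and 3 and not in replicate 2, and Il1rl1 is highest in the same 2 samples, at 9.07 and 5.12 CPM.

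Of 4 other IL-1 family ligand genes that could be tested none passed at 18 months and 1 rose at 24 months, with medians of 0.36 and 0.92. Over all tested genes 6.04% were called higher at 18 months and 19.2% at 24 months, with medians of 0.01 and 0.03, and counts this small are near those shares. The same shares are the background for the counts of the gene lists that follow. Il1rn, the antagonist of the IL-1 receptor, stood at 3.51, 1.93 and 16.4 CPM at 24 months against 0.934 to 2.37 CPM in young samples (2.26, SE 0.650, edgeR adjusted p = 0.0252). This call was lost without 24 month replicate 3, the highest sample, and without 2 month replicates 1, 2 or 3. Il1a, an alarmin like IL-33, was at 0.94 (SE 0.412, edgeR adjusted p = 0.158) and 1.12 (SE 0.403, edgeR adjusted p = 0.0550). Il1b was at 0.18 and -0.14 and Il18 at 0.43 and 0.72, none of which passed. The IL-36 and IL-38 genes of the list had too few counts to test.

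The receptors of the family include genes beside Il1rl1 on chromosome 1. Of 6 tested, 2 rose at 18 months and 4 at 24 months, with medians of 0.42 and 0.90, and none fell. Il18r1, the neighbour of Il1rl1, was between 1.26 and 1.83 CPM in young samples, at 12.6, 9.21 and 17.4 CPM at 18 months and at 8.21, 12.9 and 36.1 CPM at 24 months. Its log2 fold changes were 3.16 (SE 0.475, edgeR adjusted p = 0.0117) and 3.71 (SE 0.482, edgeR adjusted p = 0.00209). At 18 months the 2 neighbours stood on opposite sides of the young level, and at 24 months they were highest in different samples, replicate 3 for Il18r1 and replicate 1 for Il1rl1. The difference between the genes was not tested.

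Il18rap, the second chain of the IL-18 receptor, rose by 1.85 (SE 0.501, edgeR adjusted p = 0.0432) and 2.05 (SE 0.499, edgeR adjusted p = 0.0136). The first of these calls was lost in 7 of 10 fits that left out 1 sample, the exceptions being 2 month replicate 3 and 24 month replicates 1 and 3. Il1r1, the signalling IL-1 receptor, rose by 0.45 (SE 0.136, edgeR adjusted p = 0.0290) and Sigirr, an inhibitory receptor of the family, by 0.96 (SE 0.257, edgeR adjusted p = 0.0193) at 24 months. The call of Il1r1 was lost without 2 month replicates 2, 3 or 4 or 24 month replicate 3, and that of Sigirr without 2 month replicate 1 or 24 month replicate 3. Il1r2, a decoy receptor on the same chromosome, was lower in all 18 month and higher in all 24 month samples than in young ones, as Il1rl1 was, at -1.27 (SE 0.431, edgeR adjusted p = 0.0824) and 0.84 (SE 0.353, edgeR adjusted p = 0.0883). Its level was under 1 CPM in every sample, and neither change passed.

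**Figure D4:**
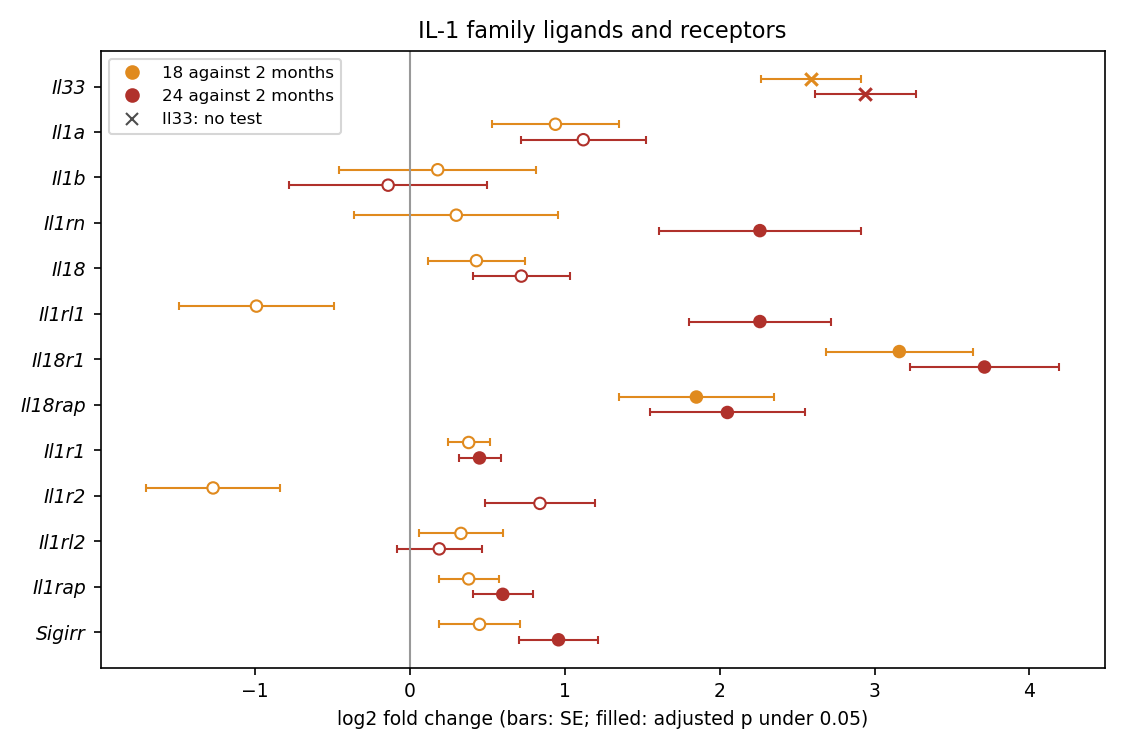
Log2 fold change with SE (x axis) of genes of IL-1 family ligands and receptors at 18 and 24 months against 2 months, with filled circles for an edgeR adjusted p under 0.05, open circles for genes that missed it and crosses for Il33, which was not tested here. Il1rl1 is at -0.99 and 2.26, its neighbour Il18r1 at 3.16 and 3.71, and Il1rap at 0.38 and 0.60.

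Proteases that cut IL-33 can activate or inactivate it. The mast cell proteases among them are given above. Casp1 stood at 3.84 to 5.16 CPM in young samples and at 9.15 CPM or more in all older ones (1.39, SE 0.191, edgeR adjusted p = 0.00948, and 1.42, SE 0.190, edgeR adjusted p = 0.00209). Ctss, a cathepsin of macrophages, rose by 1.74 (SE 0.336, edgeR adjusted p = 0.0174) and 2.25 (SE 0.340, edgeR adjusted p = 0.00283). The first of these was lost without 2 month replicate 1 or 2 or the summed 18 month sample. Prtn3, a neutrophil protease, rose at 24 months by 1.91 (SE 0.318, edgeR adjusted p = 0.00365) from between 0.203 and 0.365 CPM to between 0.821 and 1.48 CPM. The neutrophil genes Elane and Ctsg were at or near 0 in all samples. Not every abundant gene of the list was higher in older samples. The calpain gene Capn1 stood at 49.6 to 71.1 CPM in young and 56.1 to 69.9 CPM in 24 month samples. Capn2, another calpain gene, stood at 101 to 113 CPM and 91.4 to 103 CPM. For both genes the 18 month samples also overlapped the young ones.

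The shared signalling chain below ST2 had few calls. Of 23 tested genes none passed at 18 months and 1 rose at 24 months, with medians of -0.01 at both ages. An unadjusted edgeR p under 0.05 was found for 0 of them at 18 months and 4 at 24 months. Over all tested genes the shares were 29.9% and 46.7%. The list summed to 1987 CPM in 2 month replicate 3, against 1436 to 1684 CPM in the other young samples. Nfkb1, Rela and Map2k3 were each highest among young samples there, which raises and widens the young level of these genes. Myd88, the adaptor, stood at 24.5 to 29.1 CPM in young, 22.4 to 28.8 CPM in 18 month and 24.4 to 31.3 CPM in 24 month samples. Traf6, the ubiquitin ligase below it, was between 50.5 and 56.2 CPM in all 10 samples. Ikbkb, a kinase that releases NF-kappaB, rose by 0.39 (SE 0.0876, edgeR adjusted p = 0.0102) at 24 months. With library totals in place of TMM the medians of this list were 0.08 and 0.18, so the sign of so small a median depends on the scaling, and the median of all genes moved by a similar amount, to 0.10 and 0.22.

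Among 11 inhibitors of this chain, 1 rose at 18 months and 3 at 24 months, with medians of 0.33 and 0.37. These shares are near the 6.04% and 19.2% called higher over all tested genes. Irak3, a kinase-like brake on the MyD88 complex, was between 2.18 and 2.72 CPM in young samples and 3.69 CPM or higher in all older ones. It rose by 0.97 (SE 0.213, edgeR adjusted p = 0.0233) and 1.33 (SE 0.212, edgeR adjusted p = 0.00311). The first call was lost without 2 month replicates 1, 2 or 4, 18 month replicate 1 or the summed 18 month sample. Nfkbia, the inhibitor of NF-kappaB and one of its target genes, rose at 24 months by 0.95 (SE 0.181, edgeR adjusted p = 0.00582), and Socs3, a brake on cytokine receptors, by 0.82 (SE 0.204, edgeR adjusted p = 0.0150), the latter not without 24 month replicate 3. Dusp1, a phosphatase of MAP kinases, was at -1.99 (SE 0.728, edgeR adjusted p = 0.0590) and had 1 young sample at 467 CPM against 80.5 to 112 CPM in the others.

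**Figure D5:**
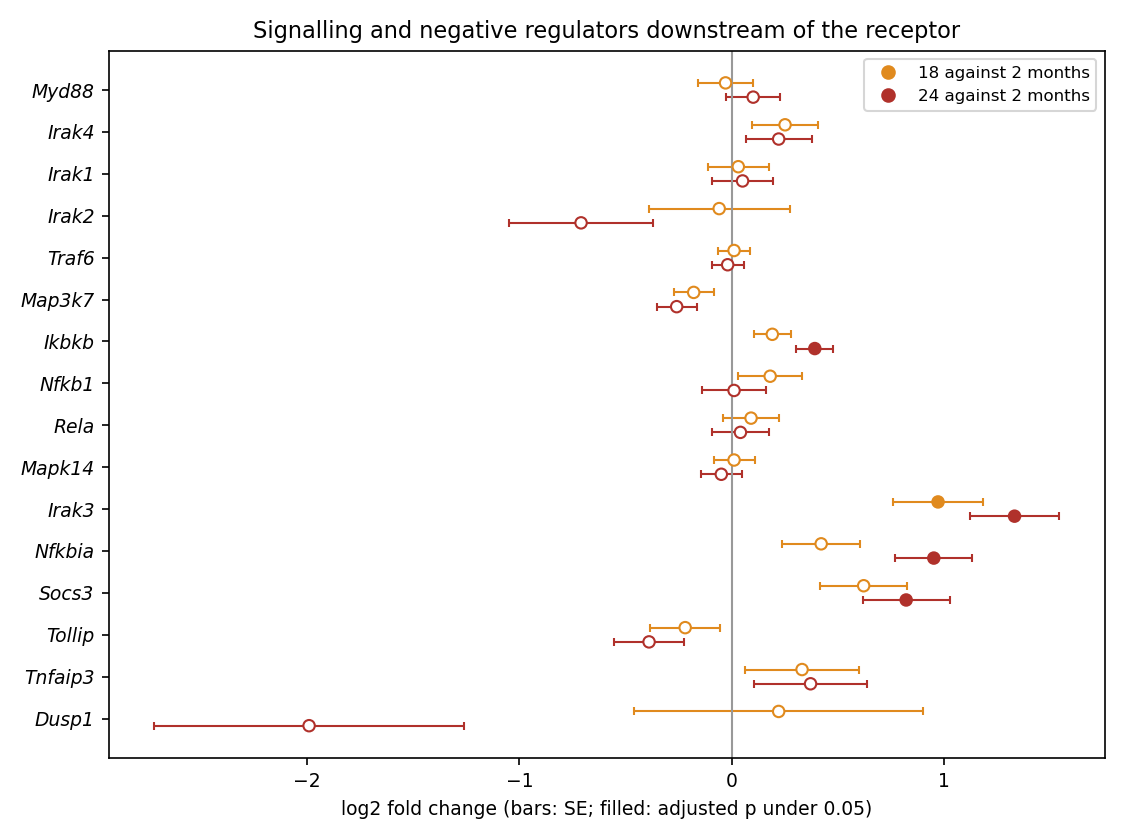
Log2 fold change with SE (x axis) of signalling genes (upper rows, Myd88 to Mapk14) and inhibitors (lower rows, Irak3 to Dusp1) at 18 and 24 months against 2 months, filled where the edgeR adjusted p was under 0.05. Ikbkb at 0.39 is the only filled signalling gene, and Irak3, Nfkbia and Socs3 are filled at 24 months at 1.33, 0.95 and 0.82. The rows are a selection from the 23 signalling genes and 11 inhibitors tested. All called genes are drawn and some uncalled ones are not, so the share of filled points is above that of the lists.

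Type 2 cytokines are what ST2-bearing cells release after IL-33. Their own genes stayed low, with Il4 between 1.79 and 2.65 CPM and Il5 between 0.183 and 0.709 CPM over all samples, Il13 at 0.124 CPM or less and Il9 at 0 in all. Neither Il4 nor Il5 passed, at 0.15 (SE 0.223) and 0.38 (SE 0.446) for 24 months. Of 9 tested genes of cytokines and receptors 1 rose at 18 months and 3 at 24 months, where 6.04% and 19.2% of all tested genes were called higher. Il13ra1, a chain of the receptor for IL-4 and IL-13, was between 26.8 and 32.3 CPM in young samples and 49.3 and 75.9 CPM in older ones, and rose by 1.03 (SE 0.159, edgeR adjusted p = 0.0117) and 1.15 (SE 0.159, edgeR adjusted p = 0.00221).

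Il17rb, a chain of the IL-25 receptor, stood at 2.35, 9.47 and 20.6 CPM at 24 months against 1.71 to 2.95 CPM in young samples (2.24, SE 0.592, edgeR adjusted p = 0.0187). Areg, a growth factor released by ST2-bearing lymphocytes among other cells, rose by 3.18 (SE 0.849, edgeR adjusted p = 0.0191) but did not exceed 0.552 CPM. It had 4, 18 and 19 counts in 24 month replicates 1 to 3 and 0 to 3 counts in young samples. Without 24 month replicate 3 or 2 month replicate 1 both calls were lost, and that of Areg also without 24 month replicate 2. Replicate 3 of the 24 month group stood apart in the oviduct epithelium list, with a sum of 1139 CPM against 162 to 299 CPM in all other samples. The same sample had the highest Il1rn, Il18r1 and Il17rb, and the part of adjoining tissue in these values was not tested.

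Other cells that bear ST2 were read by their marker genes. In the list of group 2 innate lymphoid cells 5 of 11 tested genes rose at 18 months and 6 at 24 months, with medians of 1.56 and 1.40. The shares of all tested genes called higher were 6.04% and 19.2%. Il7r, the IL-7 receptor, rose by 3.22 (SE 0.541) and 3.68 (SE 0.547), and Bcl11b, a lymphocyte factor, by 2.20 (SE 0.371) and 2.81 (SE 0.372). T cells also express both genes, and in the T cell list 7 of 12 genes rose at 18 months and 10 at 24 months. Ptgdr2, a receptor more typical of the innate cells, did not exceed 0.487 CPM and did not rise (-1.64, SE 0.494, edgeR adjusted p = 0.0588 at 18 months). Foxp3, the defining factor of regulatory T cells, was between 0.0812 and 0.930 CPM over all samples and did not pass, while 2 of 7 genes of its list rose at 18 months and 3 at 24 months. The list's summed level was 35.2 to 43.0 CPM at 2 months, 57.2 to 75.8 CPM at 18 months and 74.7 to 83.3 CPM at 24 months. Its most abundant gene at 24 months was Lrrc32, and Foxp3 was a small part of the sum. The sum is therefore a description of the list and not a measure of regulatory T cell number.

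Many myeloid genes were already higher at 18 months, when Il1rl1 was at its lowest. In the macrophage list 10 of 12 genes rose at 18 months and 12 at 24 months, with medians of 1.18 and 1.26. The background for this and the lists below was 6.04% and 19.2% of all tested genes called higher. In the list of alternatively activated macrophages, the state that IL-33 and IL-13 are known to favour, 2 of 10 rose at 18 months and 6 at 24 months. Mrc1, its mannose receptor gene, rose by 0.89 (SE 0.144, edgeR adjusted p = 0.0127) and 0.70 (SE 0.144, edgeR adjusted p = 0.00744), and Clec10a, a lectin, by 1.62 (SE 0.265, edgeR adjusted p = 0.00344) at 24 months. Arg1 did not pass, at 1.40 (SE 0.530, edgeR adjusted p = 0.0649). Of 4 tested eosinophil genes 1 rose at 18 months and 2 at 24 months, and none of 5 basophil genes had enough counts to test.

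Cell types known to hold IL-33 were read in the same way. Of 12 ovarian surface epithelium genes 8 rose at 18 months and 9 at 24 months, with medians of 1.76 and 1.81, and none fell. Lgals7, a galectin, rose by 1.96 (SE 0.193) and 2.15 (SE 0.193). The summed level of this list was 211 to 282 CPM at 2 months, 416 to 1124 CPM at 18 months and 402 to 1404 CPM at 24 months.

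Of 12 stromal genes 3 rose at 18 months and 7 at 24 months, and Dcn, a matrix proteoglycan, rose by 1.66 (SE 0.218) and 2.49 (SE 0.222). The sums were 2714 to 3436 CPM, 3551 to 5505 CPM and 3789 to 7120 CPM. Of 12 blood endothelial genes 1 rose at 18 months and 4 at 24 months, with medians of 0.17 and 0.14, and sums of 547 to 1092, 742 to 954 and 641 to 965 CPM. Over all tested genes 6.04% were called higher at 18 months and 19.2% at 24 months. The blood endothelial count at 18 months is near that share. Of 7 lymphatic genes 2 rose at 18 months and 4 at 24 months, with sums of 157 to 253, 335 to 467 and 314 to 439.9 CPM. The sums of the epithelial, stromal and lymphatic lists were above the young range in all older samples, as Il33 was, and that of blood endothelium was not. This trait was not particular to cells known to hold IL-33. The sums of the macrophage, alternatively activated macrophage, T cell, regulatory T cell and eosinophil lists were also above their young ranges in all older samples. The part of any of these cells in the level of Il33 was not tested.

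The genes whose pattern was most like that of Il33 were sought among 11803 genes with a mean of at least 5 CPM. Over the 10 samples these were Mst1r (r 0.995), a receptor tyrosine kinase, Chst10 (0.986), a sulfotransferase, Hoxc5 (0.980), a homeobox gene, Zmym6 (0.979), Lhx9 (0.978), a gonadal homeobox gene of the surface epithelium list, and Ggt5 (0.976), an enzyme of glutathione and leukotriene metabolism. Lhx9 rose from 15.2 ± 1.79 CPM (SD, n = 4) to 43.4 ± 19.5 CPM (n = 3) and 57.2 ± 11.7 CPM (n = 3). For deviations from the age means the leading genes were Csmd1 (0.977), Rab36 (0.944) and Mst1r (0.943), so Mst1r was among the named genes by both measures.

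For Il1rl1 the leading genes were Zfp689 (0.950), Sybu (0.938), Tsc1 (0.929), Gon4l (0.907), Rbm34 (0.901) and Cpa3 (0.878), the mast cell carboxypeptidase. Except for Cpa3 these differed little in level, with a log2 fold change at 24 months of 0.69 or less. For deviations from the age means they were Scx (0.978), Ihh (0.978) and Aff2 (0.969). For Il1rap they were Zfp101 (0.978), Tomm34 (0.973), Ttll10 (0.936), Ppp1r21 (0.936), Caprin2 (0.935) and Mageh1 (0.933), and for deviations Tomm34 (0.961), Dgat2 (0.954) and Zfp101 (0.945). Such values are the highest among all genes compared, over 10 samples that share libraries and ages, and no gene led for more than 1 member.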

How the data were processed

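The deposited table holds raw counts of reads per gene for bulk RNA of whole ovaries, 1 column per library, from stranded mRNA libraries per the labels' protocols. The submitters' processing notes name FastQC, cutadapt, STAR, HTSeq and the build mm10. Their versions, the annotation and the strand setting are not given in the sources read here, so reads of overlapping antisense genes cannot be assigned with certainty. All count columns were mapped to samples by name. Lengths and coordinates were checked against GENCODE M21, which held 54079 of 54232 identifiers.

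The counts of 18 month replicates 3 and 4 were summed. Genes kept by filterByExpr (20331) had TMM scaling factors and were tested by the quasi-likelihood F-test of edgeR 4.0.16 (R 4.3.3), two-sided, with the 3 ages in 1 model and 7 residual degrees of freedom. The Benjamini-Hochberg adjusted p threshold was 0.05 over all tested genes. CPM is TMM-scaled. Standard errors are the absolute log2 fold change divided by the root of the F statistic. Likeness is Pearson's r of log2 CPM (prior count 1).

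Members, gene lists and tests were chosen with earlier results of these data known. Any gene of the pathway lists could be named. For the protease list single genes are given and no count, since some of its genes are not reported here. Of a cell list, the rule took the 2 genes with the smallest p per comparison and the most abundant gene. Of like genes, it took the 6 and 3 highest. Other genes were named after their values were seen, namely Mrgprb2, Ms4a2, Foxp3 and Ptpn5.

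Same-numbered samples of 18 and 24 months correlated at 0.389, 0.280 and 0.147 in deviations from the age means. Samples with different numbers correlated at -0.327 to 0.135, so the value of replicate 3 was hardly higher. The numbers were treated as pairing that comparison only. The labels do not say what they share. Alternatives were library totals, DESeq2 size factors, other count filters, DESeq2 1.42.0, limma-voom (3.58.1), only 2 ages, a replicate block, 11 separate libraries and leaving out each sample.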

Additional observations from a re-analysis of the deposited data

Results flagged for a closer look

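Each member and listed gene was searched for a 2 month sample far from the other 3 (by Dixon's gap-to-range ratio at the 95% level), the only age with enough samples. Chance alone flags some genes in such a search, about 1 in 20 groups, and 7 of 126 genes were found here. None of them was Il33, Il1rl1 or Il1rap. In 2 month replicate 3, Dusp1 stood at 467 CPM, Nfkb1 at 129 CPM, Rela at 106 CPM, Map2k3 at 68.0 CPM and Il18bp, the IL-18 binding protein, at 15.9 CPM, each above the other young samples. In the same sample Ppp1r21 at 42.8 CPM was below the others. Ikzf2, a factor of regulatory T cells, stood at 9.55 CPM in 2 month replicate 1, above the others.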

How the results depend on the processing

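Il33 was chosen for its rise from 2 months, so its range over the alternatives is a description. Its log2 fold changes were 2.43 to 2.77 at 18 months and 2.91 to 3.13 at 24 months. When single samples were left out they were 2.08 to 2.91 and 2.86 to 3.09. Leaving out single samples gave 375 to 2748 genes called at 18 months against 2349, 4283 to 7467 at 24 months against 7120, and 0 to 2 between 18 and 24 months against 1. The lowest of these came without the summed 18 month sample and without 24 month replicate 3. At 18 months DESeq2 called 4052 genes and 11 separate libraries gave 4000. Between 18 and 24 months DESeq2 called 187 genes, while library totals, only the 2 ages compared and the replicate block each gave 0. Library totals raised the share of calls that were higher from 52.3% to 66.7% at 18 months and from 54.9% to 73.0% at 24 months. Il1rl1 at 24 against 2 months was 1.15 (adjusted p = 0.0519) with limma-voom and 1.65 to 2.67 without single samples. At 24 against 18 months it was 3.25 with DESeq2, which called it, and 2.64 to 3.66 without single samples. Il1rap at 24 against 2 months was 0.57 with no count filter and 0.48 to 0.66 without single samples.

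The replicate numbers did not pair the samples of the other comparisons (same-numbered correlations of 0.063, -0.054 and -0.052 for 18 against 2 months, and -0.031, -0.070 and -0.113 for 24 against 2 months). With a replicate block 1034 genes were called at 18 months and Il1rap at 24 months was 0.56 (edgeR adjusted p = 0.125). No other call of a member changed with the block. Il1rl1 rests on 8 to 18 counts per sample at 18 months, which limits its precision there.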
